A study of Mus musculus with 3 samples.

Results

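The genes described here are Rida, the mouse gene for HRSP12, and 9 genes for protein subunits of the ribonucleases RNase P and RNase MRP, namely Pop1, Pop4, Pop5, Pop7, Rpp14, Rpp21, Rpp30, Rpp38 and Rpp40. They were chosen by name from the complex that HRSP12 joins. The rule of choice used no measured value, though earlier results of these data were known when it was made. All 10 were found among the 49997 genes of the count table, and 9 had enough reads to be among the 19601 genes tested, after genes with few counts were set aside. The data are RNA immunoprecipitation sequencing (RIP-seq) of E14 cells, an established line of mouse embryonic stem cells (ESCs), all treated with Dox for 24 h. In the cell system of the study, Dox switches on a Dux transgene, which drives ESCs toward a state like that of the 2-cell embryo (2C). The groups were 1 input library and 2 libraries of RNA recovered with an antibody to YTHDF2 (IP replicates 1 and 2). All 3 libraries thus carry the same treatment, and cells without Dox and an IP with a control antibody were not analysed here.

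YTHDF2, a reader of N6-methyladenosine (m6A) in the cytoplasm, brings the RNAs that it binds to decay enzymes. RNase P removes the 5′ leader of precursor tRNAs and RNase MRP cuts the precursor of ribosomal RNA, and the 2 enzymes are built on different RNA components but share most of their protein subunits. HRSP12 bridges YTHDF2 and RNase P/MRP, so that m6A-modified RNAs are cut internally, which is a different route from the removal of the poly(A) tail by CCR4-NOT. What was measured here is the mRNA of each of these genes, and not the protein or its binding to YTHDF2. The question that these values address is which mRNAs of this machinery were over- or under-represented in RNA recovered with YTHDF2.

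m6A is placed mostly at sites that hold the letters GGAC, most often GGACT, so the GGACT sites of the enriched subunit genes are shown first, other than the 6 of Rpp38, whose exons partly overlap other genes. GGACT was searched on the sense strand of the merged exons, and a match is a sequence description and not a mapped m6A site. Sites of genes that were not enriched are not shown. Of these, the depleted Rpp30 held 2 GGACT, and Pop1 and Rpp40, neither enriched nor depleted, held 7 and 5. Each window below reaches 10 bases to either side of the motif, which stands in capitals, and is read 5′ to 3′ from the RefSeq exons of GRCm38.p6, the assembly that mm10 names.
Pop5, 5′ UTR, chr5:115237837-115237861, plus strand: cgacactctcGGACTttaagtgcag
Pop5, 5′ UTR, chr5:115237877-115237901, plus strand: ttcacttgggGGACTctgagcgcac
Pop7, 3′ UTR, chr5:137501495-137501519, minus strand: tcagcctagaGGACTgagaatggag
Rpp25, 3′ UTR, chr9:57505117-57505141, plus strand: gtgggtagtgGGACTcttgagcttt
Rpp25, 3′ UTR, chr9:57505359-57505383, plus strand: ggctgagaggGGACTtaggacaaaa
Rpp25l, coding sequence, chr4:41712450-41712474, minus strand: accagacacgGGACTagaccccctc

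The input library held 36986994 counts and the IP libraries 35259827 and 35888743, so that 3 counts, taken as the floor, were 0.0811 to 0.0851 CPM (counts scaled to the library total). The 8 ESC markers were all present in the input, at 456 to 1806 CPM each, and the 5 2C markers lay between 7.60 and 840 CPM. Of the markers of other lineages, Col3a1 and Elf5 had 0 counts in the input and Cdx2 had 2, and Thy1 (26.9 CPM) and Eomes (24.9 CPM) were the highest of the remainder. The 5 fibroblast markers summed to 32.4 CPM in the input against 21.2 and 23.8 in the IP libraries, and the 4 trophoblast markers to 26.5 against 57.3 and 55.1. Of the fibroblast markers, Thy1 fell from 26.9 to 14.1 and 15.1 CPM, while Pdgfra rose from 3.27 to 5.36 and 6.77 CPM. The 2C markers summed to 1679 CPM in the input against 2782 and 2770, the primitive endoderm markers to 11.3 against 19.4 and 15.7, and the ESC markers to 8168 against 8871 and 8806. The part of these markers in the results below was not tested. In these bulk libraries, fewer cells that hold an RNA and less of that RNA per cell cannot be told apart.

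The subunit mRNAs did not move together in the YTHDF2 IP. Pop7, Pop5 and Rpp38 were enriched, by 2.72-fold to 4.42-fold over input, Rida and Rpp30 were depleted, by 2.93-fold and 2.04-fold, and Pop4, Pop1, Rpp40 and Rpp21 were neither. Here enriched and depleted mean an adjusted p under 0.05 by the quasi-likelihood F test of edgeR over all genes tested, together with a fold over 2. Of the 9 members tested, 3 were enriched, where 15% of all genes tested were, and 2 were depleted, where 13% of all genes were. The number depleted was 1 under 5 of the alternatives tried, in each of which Rpp30 lost its call. The number enriched was 2 with a dispersion fixed at 0.1, where Rpp38 lost its call. At any fold, 7 of the 9 passed the adjusted p, 4 higher and 3 lower in IP, against a background of 57.2% of all genes. The median log2 fold change of the 9 was -0.15, beside 0.01 over all genes tested. On the TMM-scaled log2 ratios, the 2 IP libraries lay on the same side of the input for each of the 9. For Pop1 and Rpp40 this did not hold in TPM. Over 2-fold from the input in each IP library alone were 4 members (Pop7, Pop5, Rpp38 and Rida). Both ratios share the 1 input library, so they are not independent of each other, and the shares over all genes were not counted. The spread behind every p-value comes from the 2 IP libraries, which no label calls separate cultures, so it may be technical.

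**Figure D1:**
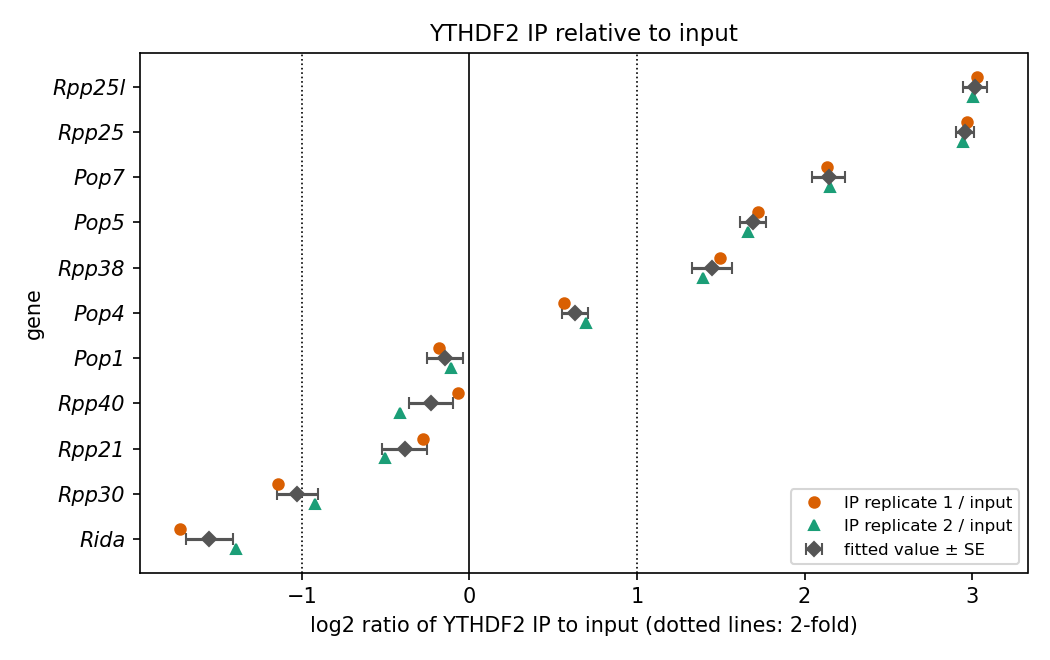
Log2 ratio of YTHDF2 IP to input (x axis) for the 9 tested members and for Rpp25 and Rpp25l (y axis), with circles and triangles for IP replicates 1 and 2 and diamonds for the fitted value ± SE. Pop7, Pop5 and Rpp38 lie to the right of the 2-fold line in both replicates, Rida lies to the left of it in both, and the replicates of Rpp30 fall on either side of it.

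Rida encodes HRSP12, a small protein of the YjgF/UK114 family that also deaminates reactive imines. Its gene lies on the minus strand at chr15:34484022-34495246, with 6 exons, all of them partly coding, and 994 exonic bases. Input counts of Rida were 1152, against 355 and 453 in IP replicates 1 and 2, which are 31.1, 10.1 and 12.6 CPM. Both IP libraries were below the input, at log2 ratios of -1.73 and -1.40. The fitted log2 fold change of -1.55 ± 0.14 (SE) passed the edgeR test at an adjusted p of 4.64e-12, so the mRNA for the adaptor made up less of the IP than of the input. With the trend over GC content taken out it was -1.01, barely past 2-fold, and the exons of Rida are 41.3% GC. Its exons held 6 GGAC and no GGACT. Of the 1419 tested genes with 800 to 1200 exonic bases, 65.9% had at least 1 GGACT, as did 88.2% of the 19554 tested genes on the main chromosomes. The genes whose log2 CPM over the 3 libraries lay nearest to those of Rida were Ap1s2, Stom and Etfdh, at Euclidean distances of 0.183, 0.225 and 0.234.

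Pop1, which encodes the large subunit that contacts the RNA component, is the neighbour of Rida, and the genes run apart from each other with 64 bases between them. Pop1 lies on the plus strand at chr15:34495311-34530653 and has 16 coding exons. Pop1 counts were 1291 (input), 1161 (IP replicate 1) and 1237 (IP replicate 2). The IP libraries were just below the input, at log2 ratios of -0.18 and -0.11. The fitted log2 fold change of -0.15 ± 0.11 (SE) did not pass the test (edgeR adjusted p = 0.258), and it was 1.41 above that of Rida. The IP ratios of these neighbouring genes did not overlap.

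Pop7 and Pop5 were the members with the highest log2 fold changes. Pop7 encodes the subunit also called RPP20, which pairs with RPP25 on the RNA component, and its gene, at chr5:137501439-137502429 on the minus strand, has 2 exons of which 1 is coding. Pop7 went from 652 input counts to 2923 and 3003 in IP replicates 1 and 2, or from 17.6 to 82.9 and 83.7 CPM. Both IP libraries were above the input and close to each other, at a fitted log2 fold change of 2.14 ± 0.10 (SE) and an edgeR adjusted p of 1.14e-20. Its GGACT lies in the 3′ UTR, as shown above.

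Pop5 encodes a core subunit with relatives in archaeal RNase P, and lies on the plus strand at chr5:115235588-115240972, with 5 coding exons. The input gave 1601 counts, IP replicate 1 gave 5403 and IP replicate 2 gave 5243. The IP libraries were at log2 ratios of 1.73 and 1.66, and the fitted value was 1.69 ± 0.08 (SE) with an edgeR adjusted p of 7.47e-21. Both GGACT of the transcript shown above are in the 5′ UTR. Pop4, which encodes the core subunit also called RPP29, lies on the minus strand at chr7:38262812-38271393. Counts of Pop4 were 2465 for the input and 3719 and 4138 for IP replicates 1 and 2. It was higher in both IP libraries and passed the adjusted p (5.91e-09 in edgeR) at a log2 fold change of 0.63 ± 0.08 (SE), which is 1.55-fold and short of the threshold of 2-fold. Its exons held 3 GGAC and no GGACT.

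Rpp38 encodes a subunit of the L7Ae family of proteins that bind kink-turns in RNA, and lies on the minus strand at chr2:3326548-3332986. Rpp38 went from 588 input counts to 1695 and 1599 in IP replicates 1 and 2. Both IP libraries were above the input, and the log2 fold change of 1.45 ± 0.12 (SE) had an edgeR adjusted p of 1.95e-13. With a dispersion fixed at 0.1 the adjusted p of Rpp38 was 0.0800. Of its 5225 merged exonic bases, 44.6% are also exon of Nmt2 and 3.31% exon of Acbd7, both on the opposite strand. Reads were counted without regard to strand and those over more than 1 gene were left out, so the value of Rpp38 rests on its remaining bases. Nmt2 went from 1607 input counts to 339 and 525 in IP and was depleted (log2 fold change -1.94 ± 0.18 SE, edgeR adjusted p = 4.46e-07), the opposite direction to Rpp38.

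Rpp30, which encodes a core subunit, was the other depleted member. It lies on the plus strand at chr19:36083689-36104773 and has 11 coding exons. Counts of Rpp30 were 1390 for the input and 642 and 761 for IP replicates 1 and 2, at log2 ratios of -1.14 and -0.92. The fitted value, -1.03 ± 0.12 (SE) at an edgeR adjusted p of 2.19e-09, was just past the 2-fold threshold. Its call as depleted was lost without IP replicate 1 (-0.92), with the trend over GC content taken out (-0.45), with scaling by library totals (-0.93) or to TPM (-0.88), and with a fixed dispersion (adjusted p = 0.187). Its exons are 40.9% GC, where the quartiles of the 15184 protein-coding genes tested were 45.7% and 55.1%.

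Rpp21 and Rpp40 were short of 2-fold. Rpp21, a subunit of RNase P, at chr17:36255673-36257846, gave 812 input counts against 684 and 592 in IP replicates 1 and 2. Its log2 fold change of -0.39 ± 0.14 (SE) passed the adjusted p in edgeR (0.0148) and was short of 2-fold. It did not pass in edgeR with scaling by library totals (0.0765) or to TPM (0.132) or with a fixed dispersion (0.684), nor in DESeq2 (0.159). With the GC trend taken out its log2 fold change was -0.89, and its exons are 57% GC. The table gives Rpp21 a length of 2000 bases, since it adds 3 copies on alternate contigs to the 500 exonic bases on chr17. Rpp40, at chr13:35895104-35911565, gave 966 input counts against 941 and 750 in IP, and the Rpp40 log2 fold change of -0.23 ± 0.13 (SE) did not pass (edgeR adjusted p = 0.138), and was -0.01 after the GC trend was taken out. Leaving out IP replicate 1 gave -0.42, and leaving out IP replicate 2 gave -0.06. In the order of the fold changes, the IP ratios of Pop1 and Rpp40 overlapped, as did those of Rpp40 and Rpp21, and no other neighbours did.

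Rpp14 could not be measured, with 0 counts in all 3 libraries. All 2467 of its exonic bases, on the plus strand of chr14:8080313-8091846, are also exon of Htd2, a gene for an enzyme of mitochondrial fatty acid synthesis that is made from the same transcript unit. Htd2 was at 0 counts in all 3 libraries as well. In the annotation used, the transcripts differ only at the end of exon 2, which runs to 8083794 in Rpp14 and to 8083807 in Htd2. The sequence there is given to show how little sets them apart, with the 13 bases that only Htd2 holds in capitals.
Rpp14 and Htd2, end of exon 2, chr14:8083782-8083807, plus strand: tgaaagtctgtctGTAAGTCCCTCTT
By the defaults of the counting tool, reads over more than 1 gene are left out, so the 0 gives no level for Rpp14 mRNA.

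Per length, the order of the members changed between input and IP. Levels here are TPM, counts per merged exonic base scaled to the library, with 1 library for the input and the mean ± SD of 2 for the IP. Pop4 was at 94.2 TPM in the input and 162 ± 9.89 in IP, Rpp21 at 90.4 and 76.6 ± 8.90 over its 500 bases on chr17, and Rpp30 at 65.4 and 35.5 ± 3.76. Rida was at 64.5 TPM in the input and 24.3 ± 3.83 in IP, while Pop5 went from 52.2 to 187 ± 6.65 and Pop7 from 45.8 to 224 ± 1.08. Pop7, in place 6 of the 9 measured members in the input, thus had the highest level of them in IP. Rpp40 (19.1 TPM), Pop1 (15.8 TPM) and Rpp38 (6.26 TPM) were the lowest measured members in the input. In IP these 3 lay at 18.0 ± 3.13, 15.8 ± 0.48 and 18.9 ± 1.05 TPM. The levels of Rpp21 and Rpp38, and so their places, depend on the length used. With the length of 2000 in the table, Rpp21 was at 22.6 TPM in the input and 19.1 ± 2.22 in IP, place 6 of the measured members in both. Over the 2722 bases that Rpp38 shares with no other gene, it was at 12.0 TPM in the input and 36.3 ± 2.01 in IP, place 5 there.

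**Figure D2:**
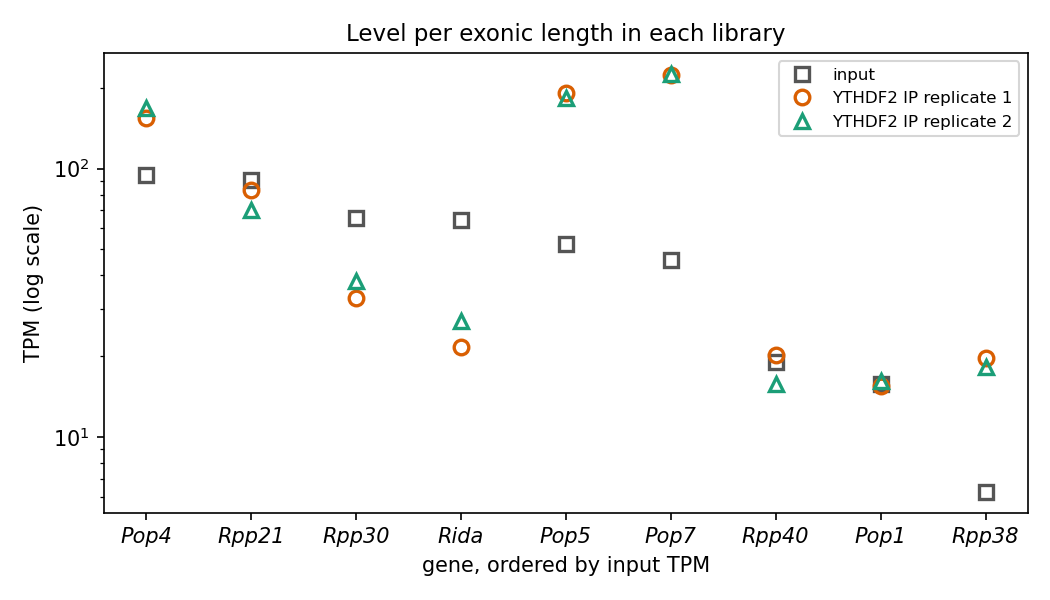
Level of the 9 measured members in TPM over merged exonic bases, with the chr17 locus alone for Rpp21 (y axis, log scale), ordered by the input (x axis), with squares for the input and circles and triangles for IP replicates 1 and 2. The IP libraries of Pop4, Pop5, Pop7 and Rpp38 lie above the input and those of Rpp21, Rpp30 and Rida below it, while those of Rpp40 and Pop1 lie on either side of it.

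The 2 further nuclear subunits that are not among the members, Rpp25 and Rpp25l, were enriched more than any member. Rpp25 encodes the partner of the Pop7 protein, and went from 6669 input counts to 53262 and 53313 in IP replicates 1 and 2. This is 7.77-fold, or 2.96 ± 0.06 (SE) as a log2 fold change, at an edgeR adjusted p of 1.90e-32. Rpp25l, a gene related to Rpp25, had 1343, 11186 and 11182 counts, and a log2 fold change of 3.02 ± 0.07 (SE), or 8.10-fold, with an edgeR adjusted p of 2.75e-29. With the trend over GC content taken out, the log2 fold changes were 2.32 (Rpp25) and 2.41 (Rpp25l), and the exons of these genes are 59.1% and 58.6% GC. Rpp25, Rpp25l and Pop7 were thus each higher in both IP libraries.

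**Figure D3:**
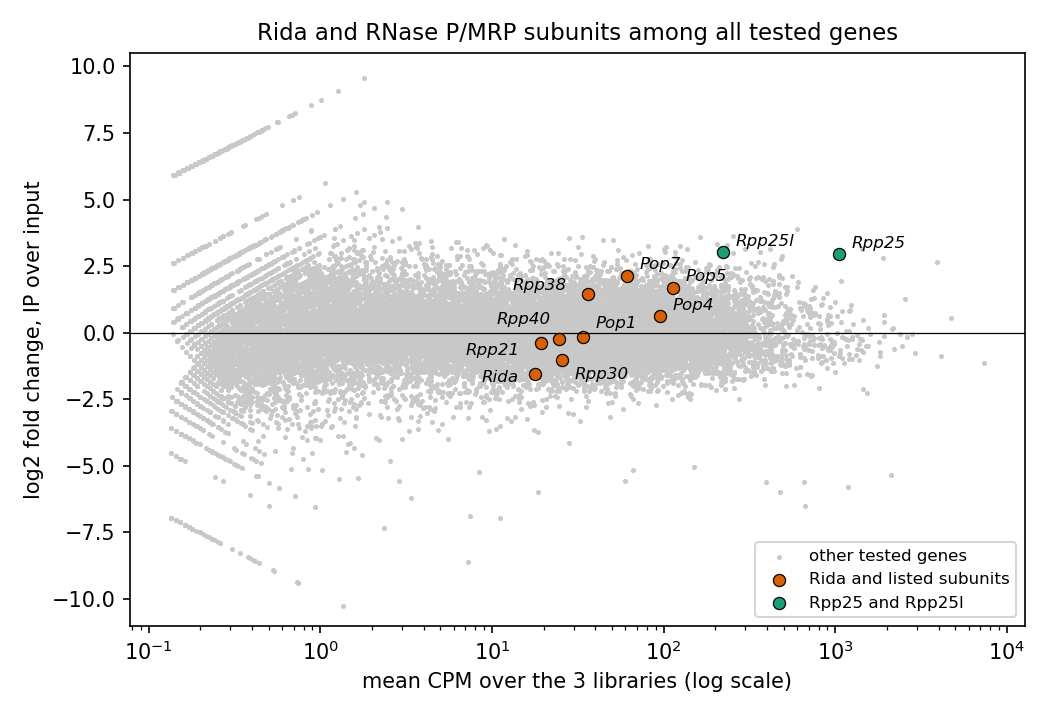
Mean CPM over the 3 libraries (x axis, log scale) against the log2 fold change of IP over input (y axis) for all 19601 genes tested, in grey, with the members in orange and Rpp25 and Rpp25l in green. The members span log2 fold changes from -1.55 (Rida) to 2.14 (Pop7), at levels where grey points lie on both sides of 0.

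The enriched subunit genes mostly had few coding exons. Among the 12 genes of Rida and the nuclear subunits, the 4 with 1 coding exon (Pop7, Rpp25, Rpp25l and Rpp38) were all enriched. Of these 4, only Pop7 and Rpp38 are members. Rpp25 and Rpp25l come from a further list, which was chosen with earlier results of these data known. Over all protein-coding genes tested, 36.3% of the 1115 genes with 1 coding exon were enriched, compared with 26.6% of those with 2 to 4, 14.9% of those with 5 to 9 and 6.63% of those with 10 or more. Pop5, with 5 coding exons, was enriched too, and Trmt10c, a subunit of the mitochondrial RNase P with 1 coding exon, was not (log2 fold change -0.15 ± 0.11 SE, edgeR adjusted p = 0.245). The part of coding exon number in these values was not tested. As for GGACT, 7 of the 10 members had at least 1, beside 88.2% of the tested genes on the main chromosomes. The 3 without were Rida, Pop4 and Rpp21. Per kb of exon, the depleted Rpp30 held 1.69 GGACT, and Pop1 and Rpp40, which were neither, held 1.54 and 1.77. The enriched subunit genes held 1.15 (Rpp38) to 1.49 (Rpp25).

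**Figure D4:**
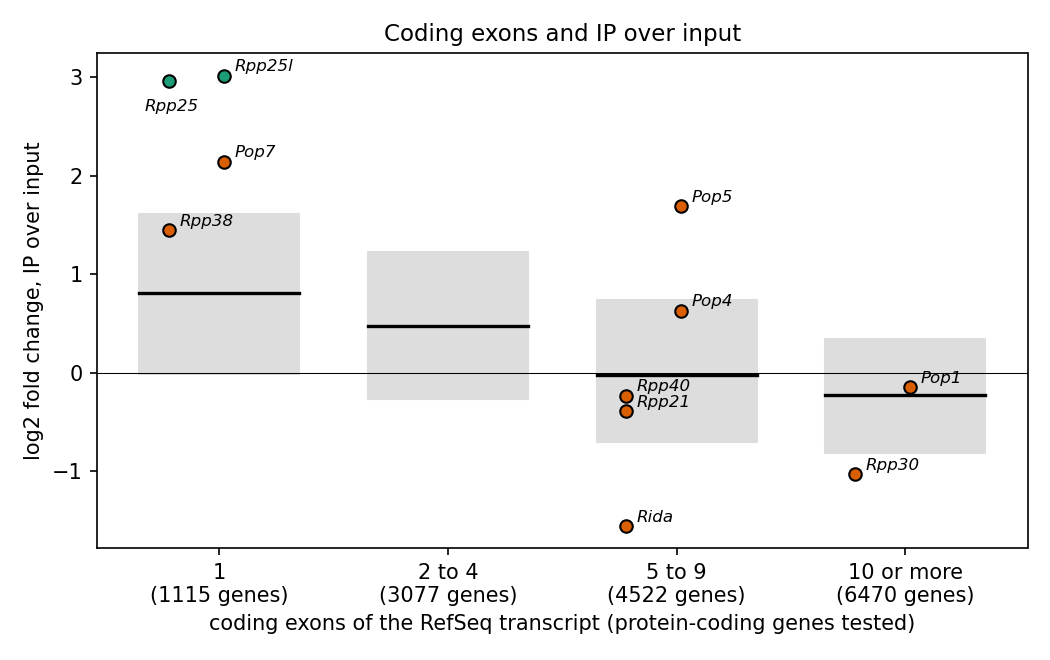
Log2 fold change of IP over input (y axis) by number of coding exons of the RefSeq transcript (x axis), where grey boxes span the quartiles of all tested protein-coding genes, black lines are medians, and points are the members (orange) and Rpp25 and Rpp25l (green). The median falls from 0.81 at 1 coding exon to -0.22 at 10 or more. Rida and Rpp30 lie below the boxes of their classes, and Pop5, Pop7, Rpp25 and Rpp25l lie above theirs.

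The RNA components of the enzymes were scarcely counted. Rpph1, the RNA of RNase P, had 65, 46 and 32 counts in the input and IP replicates 1 and 2, and Rmrp, the RNA of RNase MRP, had 20, 17 and 2. Neither passed the test, at log2 fold changes of -0.77 ± 0.48 (SE) and -1.10 ± 1.13 (SE) and edgeR adjusted p of 0.171 and 0.426.

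Among other genes of tRNA processing, none was enriched and 3 were depleted, where 15% and 13% of all genes tested were, and 57.2% passed the adjusted p at any fold. Of the 3 genes of the mitochondrial RNase P, Hsd17b10 passed the adjusted p, at a log2 fold change of -0.47 ± 0.09 (SE), and none was enriched or depleted. Of the 4 genes for the 3′ end of tRNAs, 3 were lower and 1 higher at the adjusted p, and Ssb, which encodes the La protein that binds the 3′ end of new tRNAs, was depleted (10021, 4555 and 5008 counts, log2 fold change -1.11 ± 0.06 SE, edgeR adjusted p = 5.04e-18). Of the 10 genes of tRNA splicing found in the table, 6 were lower and 2 higher at the adjusted p, and Ddx1 and Fam98b, both of the tRNA ligase complex, were depleted. Fam98b went from 1968 input counts to 469 and 481 in IP (log2 fold change -2.09 ± 0.11 SE, edgeR adjusted p = 1.74e-18).

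YTHDF2 acts with CNOT1 and UPF1 as well as with HRSP12, and the mRNAs of these partners differed in direction. Cnot1, the scaffold of the CCR4-NOT deadenylase, went from 14233 input counts to 4922 and 5007 in IP, and was depleted to nearly the same log2 fold change as Rida (-1.56 ± 0.06 SE, edgeR adjusted p = 7.57e-24). Upf1, the helicase of nonsense-mediated decay, was higher in IP at the adjusted p (4.28e-07 in edgeR) but short of 2-fold, at 0.43 ± 0.07 (SE). Ythdf2 mRNA itself was enriched, from 3380 input counts to 10757 and 9922 in IP replicates 1 and 2 (log2 fold change 1.57 ± 0.07 SE, edgeR adjusted p = 4.82e-21).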

How the data were processed

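E14 mouse ESC RIP-seq libraries (1 input, 2 YTHDF2 IP) were grouped by their titles. The deposited values are raw counts per gene, which the authors made from mm10 alignments (HISAT2 2.2.1, after fastp 0.19.4, per the submitters' processing notes) with featureCounts 2.0.3 over RefSeq exons, without strand. Each mate of a pair was counted, so sampling noise exceeds what the counts imply. Reads over several genes or places were left out by default. The methods describe IP from cleared lysate, while the labels describe Trizol RNA used in the IP, and whether the total RNA of the input came from whole cells or cleared lysate is not given.

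Counts were fitted in R 4.3.3 with edgeR 4.0.16: filterByExpr, TMM, robust dispersion (estimateDisp and glmQLFit), glmQLFTest and Benjamini-Hochberg over 19601 genes, with 1 residual degree of freedom. The SE is the log2 fold change over the root of F, and single-library ratios add 0.5 to each count. glmQLFit was also run without its robust option, after the calls of the robust fit had been seen, and is given as an alternative (the closing section gives it). On data simulated for this comparison (18794 genes), 100 of 100 genes changed 4-fold and 99 of 100 changed 3-fold were recovered, with 2 calls among unchanged genes. All 3 simulated libraries had the common dispersion of the fit (0.005375), and changes were placed only in genes above a minimum count. The simulation thus does not cover an atypical input library, dispersion that differs between genes, or folds near 2. DESeq2 1.42.0 and other scalings were alternatives. The members are those listed above, all of them named, and for other lists up to 4 genes with the highest or lowest values were to be named. Members and lists were chosen with earlier results of these data known. Nmt2, Htd2 and Acbd7 were named for their overlap with members.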

Additional observations from a re-analysis of the deposited data

How the results depend on the processing

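No paired analysis was possible because the input is 1 library without a replicate number. Of 108 values of the 9 tested members under 12 alternatives, 101 kept their direction and their call as enriched, depleted or neither. In 36 of the 108 (a replicate left out, or the GC or length trend removed) p was not refitted, so only the fold could change the call. A further 5 crossed the p threshold without a change of call. Pop1 turned to 0.0012 with scaling to TPM and was -0.05 with library totals. Removing the GC trend moved Rida to -1.01, Rpp21 to -0.89 and Rpp40 to -0.01. Of the enriched members, it lowered Pop7 from 2.14 to 1.66 and Pop5 from 1.69 to 1.32, and raised Rpp38 from 1.45 to 1.75. Rpp40 lay between -0.42 and -0.06 when either IP replicate was left out. Rpp38 kept a log2 fold change of 1.45 with a fixed dispersion of 0.1, but its adjusted p was 0.0800. Rpp30 was no longer depleted with scaling by library totals (-0.93), scaling to TPM (-0.88), the GC trend removed (-0.45, p not refitted) or a fixed dispersion (-1.03, adjusted p = 0.187), and without IP replicate 1 it was short of 2-fold (-0.92). The number of members depleted was then 1 with each of these 4, and 1 to 2 when either IP replicate was left out, which leaves no residual degree of freedom and so no test. Scaling by library totals and to TPM moved the median of all genes by 0.10 and 0.15, and removing the GC trend by -0.11. The cause of these shifts was not tested.

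The fit was made first with the robust option of glmQLFit, then without it, and the robust fit was kept because it is the planned one. Without the option, chosen after seeing the data, 2966 genes were enriched and 2570 depleted in place of 2936 and 2543. The members called were 3 enriched and 2 depleted in both, and 7 of 9 passed the adjusted p. Rpp21 passed it neither in DESeq2 (0.159) nor in edgeR with library totals (0.0765), TPM (0.132) or a fixed dispersion (0.684), and Pop4 did not with a fixed dispersion (0.486). Other lengths, also chosen after seeing the data, moved the level of Rpp38 from 6.26 to 12.0 TPM in the input and from 18.9 to 36.3 in IP, and that of Rpp21 from 90.4 to 22.6 and from 76.6 to 19.1. Rpph1 and Rmrp had at most 65 counts in a library, and Rpp14 has no usable counts.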
